A study of Mus musculus with 6 samples.

Results

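Carbonic anhydrases are the enzymes that turn carbon dioxide and water into bicarbonate and protons, and 8 of their genes were followed here in mouse colon after deletion of Smad4. The 8 genes are Car1, Car2, Car4, Car5b, Car8, Car9, Car12 and Car13, taken by name from the 22354 genes of the deposited count table, where each has 1 row. They were compared between 3 libraries labelled Smad4 knockout (KO) and 3 labelled Smad4 wild type (WT), 1 per mouse. All 6 mice were C57BL/6J and were dissected 1 month after tamoxifen, the drug used to switch on an inducible deletion. The KO genotype also names Lrig1, which marks epithelial stem and progenitor cells of the gut, and the controls are described as SMAD4+. The Cre construct, the deleted part of Smad4, any allele the controls share with the KO mice, and the age and sex of the mice are not given in the sources used here. Crypts had been released with EDTA, the layer beneath was scraped off the muscle, and the sequenced RNA came from that layer.

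In the colon, carbonic anhydrases supply bicarbonate and protons to the exchangers of the surface cells, which take up sodium and chloride and secrete bicarbonate. Family members differ mainly in where they work. Car1, Car2 and Car13 are cytosolic enzymes, Car5b is mitochondrial, Car4 is held on the outer cell surface by a lipid anchor, and Car9 and Car12 span the membrane with the catalytic part outside. Car8 keeps the fold of the family but has no carbonic anhydrase activity and binds the inositol trisphosphate receptor.

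Library totals were 18918880 to 25867997 counts, over 18671 to 19193 detected genes. A set of 10 general epithelial genes, among them Elf3 and Epcam, summed to 24918 to 27097 CPM (counts scaled to library size, with TMM factors for composition) in KO and 24301 to 26716.5 CPM in WT, while 6 fibroblast genes summed to 8.26 to 12.9 CPM in KO and 3.39 to 4.90 CPM in WT. Thus the defining transcripts of the labelled stroma were scarce and those of epithelium abundant in every library. Smad4 itself was at 91.9, 102.1 and 59.0 CPM in KO and at 131.6, 152.5 and 110.9 CPM in WT, with no overlap between the groups (log2 fold change -0.64 ± 0.21 SE, adjusted p = 0.338, edgeR quasi-likelihood test). One library stood apart. WT replicate 1 had the lowest mean correlation with the other libraries (0.977, against 0.982 to 0.986 for the other 5), and its counts differed most from those of its own group. The chi-square per degree of freedom, which is near 1 for sampling noise alone, was 55.9 and 72.9 against the other WT libraries, 13.4 between WT replicates 2 and 3 and 21.0 to 29.4 among KO libraries. The tests of the 8 carbonic anhydrases below are therefore given with WT replicate 1 and without it. This library was singled out with earlier results of these data known, and leaving it out reduces WT to 2 libraries.

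WT replicate 1 was also the extreme library for every one of the carbonic anhydrases. It had the lowest level of the 6 libraries for Car1, Car4, Car8, Car9, Car12 and Car13, and the highest for Car2 and Car5b. Over all 14180 tested genes it was the lowest or the highest library for 51.3%, where each of the other 5 libraries held that place for 23.4% to 37.1%. Some markers of tissue make-up stood apart in the same library and others did not. The Hox gene Hoxa13 did not, at 55.0, 76.5 and 65.1 CPM in KO and at 59.7, 49.3 and 52.1 CPM in WT. Des, the intermediate filament of muscle, was at 0.919, 0.665 and 0.355 CPM in KO and at 10.95, 0.859 and 0.199 CPM in WT, and Hoxd13, a Hox gene of the hind end of the gut, was at 16.7, 76.3 and 36.7 CPM in KO and at 143.6, 28.3 and 47.2 CPM in WT. Their part in the carbonic anhydrase levels of WT replicate 1 was not tested.

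**Figure D1:**
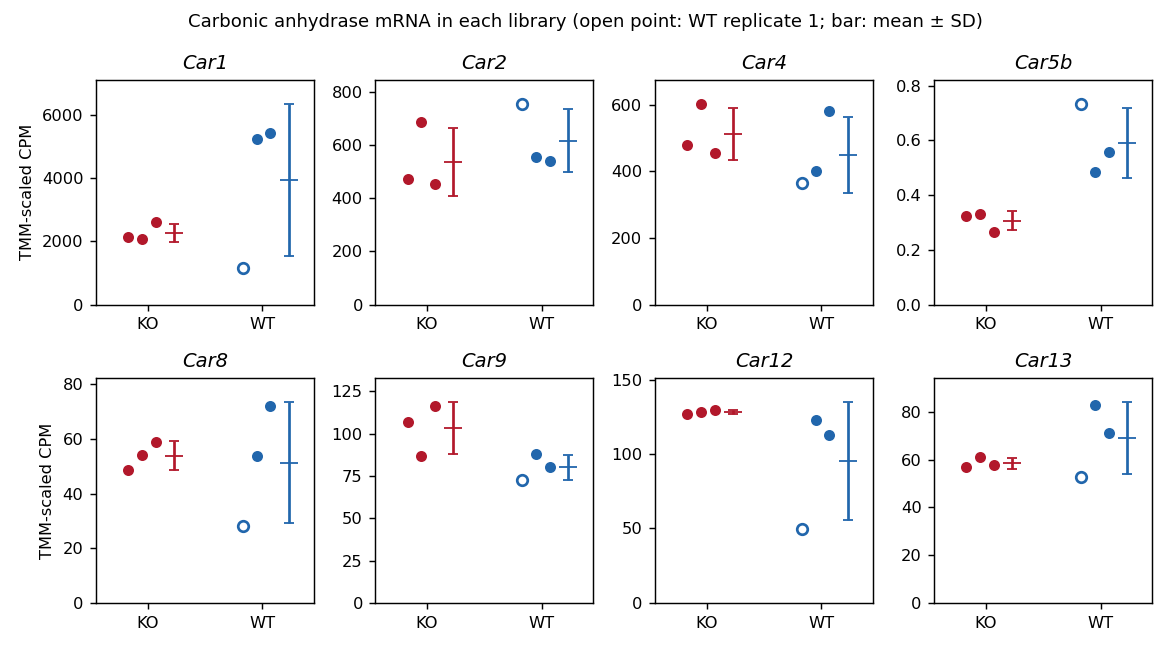
TMM-scaled CPM of each carbonic anhydrase gene (y axis, from 0, a scale of its own per panel) in the 3 KO libraries (red, left) and 3 WT libraries (blue, right), with the mean ± SD of each group and WT replicate 1 as the open point. Car1 in WT replicate 1 lies below all KO libraries and WT replicates 2 and 3 lie above them, while Car5b and Car12 show no overlap between the groups.

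The family spanned a very wide range of levels, and Car1 led it. Per kilobase of exon, Car1 averaged 1815 ± 237 CPM per kb in KO and 3160 ± 1927 CPM per kb in WT (SD, n = 3 each). Car4 and Car2 followed, with 260.3 ± 40.4 CPM per kb for Car4 in KO and 228.4 ± 58.5 CPM per kb in WT, and 221.3 ± 53.0 CPM per kb for Car2 in KO and 254.2 ± 49.4 CPM per kb in WT. The ranges of Car2 and Car4 overlapped, so their order is not settled at this spread. Below them came Car9 (44.9 ± 6.63 CPM per kb in KO and 34.8 ± 3.27 CPM per kb in WT) and Car13 (23.0 to 36.0 CPM per kb over the 6 libraries). Car9 was above Car13 in all 6 libraries although their ranges over the libraries overlapped. Car8 and Car12 could not be ordered, at 7.27 to 18.7 and 6.56 to 17.1 CPM per kb over the 6 libraries. Car5b was the rarest of the 8, at 0.0419 to 0.115 CPM per kb.

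**Figure D2:**
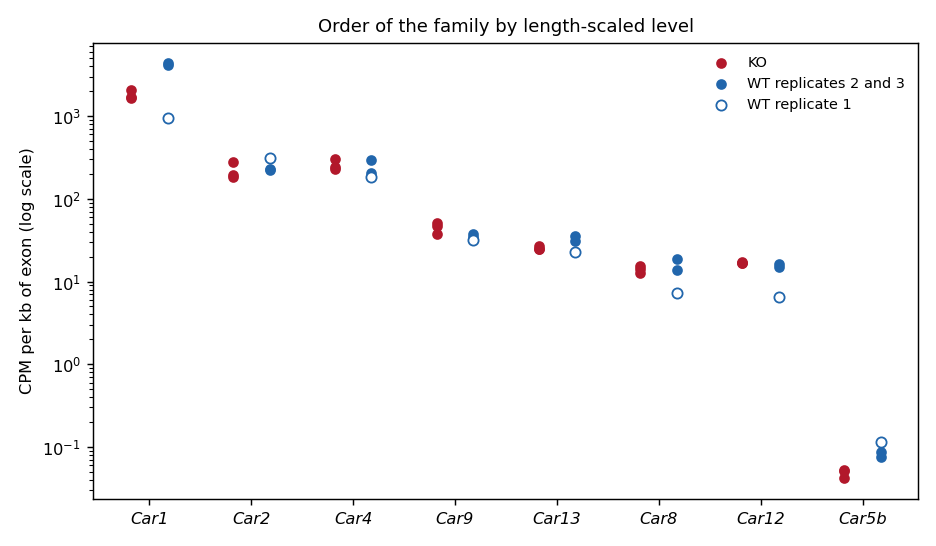
Level per kilobase of exon (y axis, CPM per kb on a log scale) of the 8 genes in order of their WT mean, with KO libraries in red on the left of each gene and WT libraries in blue on the right, WT replicate 1 open. Car1 is above every other member in all 6 libraries, Car2 and Car4 overlap, as do Car8 and Car12, and Car5b lies far below the rest.

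Of the whole family's length-scaled level, Car1 held 75.9%, 70.8% and 79.9% in the KO libraries and 62.3%, 88.7% and 87.5% in the WT libraries. By CPM it was the 24th, 27th and 18th most abundant gene of the table in KO and the 57th, 6th and 8th in WT. The summed level of all 8 genes was 3412, 3684 and 3874 CPM in KO and 2493, 6550 and 6872 CPM in WT. Without Car1 the sum of the other 7 averaged 1392 ± 195 CPM in KO and 1361 ± 84.7 CPM in WT (SD, n = 3 each), a difference smaller than the spread within either group.

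With all 6 libraries, no carbonic anhydrase passed the test of KO against WT. The quasi-likelihood test of edgeR, adjusted over 14180 genes at a threshold of 0.05, called 0 of the 8 and 0 genes overall (0%). DESeq2, the exact test of edgeR and limma-voom also called 0 of the 8, where DESeq2 called 2.18% of all genes, the exact test 2.69% and limma-voom 0%. In edgeR quasi-likelihood, 2 of the 8 had an unadjusted p under 0.05, Car5b and Car9, against 8.54% of all genes. In DESeq2 it was Car9 alone. Car5b passed the filter through its WT counts, the higher group. With a filter at a mean count of at least 10 it dropped out, and 1 of 7 members had an unadjusted p under 0.05. The fold change was positive for 4 members (Car4, Car8, Car9, Car12) and negative for 4 (Car1, Car2, Car5b, Car13), and the median log2 value was -0.07 beside -0.01 for all genes. Without WT replicate 1 the quasi-likelihood test called 1 of the 8, Car1 as lower, where it called 17 of 14436 genes (0.118%), 12 of them lower (0.0831%). At an unadjusted p under 0.05 it then had 3 of the 8 (Car1, Car9, Car13), against 12.9% of all genes. DESeq2 and the exact test then called 2 of the 8, Car1 and Car13, both as lower, where they called 3.48% and 4.21% of all genes, 1.22% and 1.48% as lower.

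**Figure D3:**
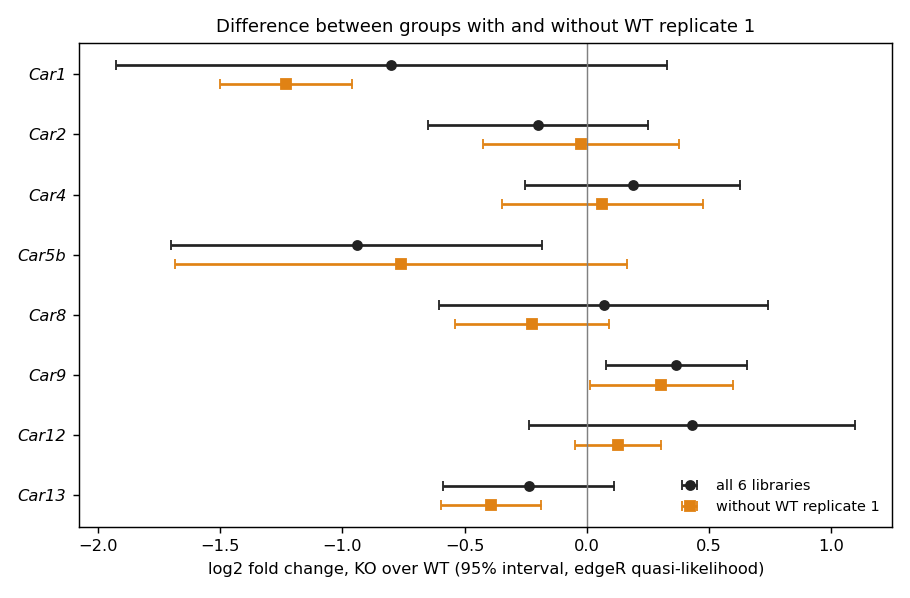
Log2 fold change of KO over WT (x axis) for each gene (rows) from the edgeR quasi-likelihood fit, with 95% intervals, from all 6 libraries (black circles) and without WT replicate 1 (orange squares). The Car1 interval reaches from -1.93 to 0.33 with all libraries and from -1.50 to -0.96 without WT replicate 1, and Car8 changes side.

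Among the cytosolic enzymes, Car1 and Car13 were lower in KO than in WT replicates 2 and 3, and Car2 overlapped between the groups. Car1 (ENSMUSG00000027556, chromosome 3, 14766216 to 14808368, mm10, minus strand), the abundant cytosolic form of colonocytes and red blood cells, was at 2121, 2068 and 2605 CPM in KO and at 1169, 5248 and 5414 CPM in WT. The 3 KO libraries lay close together and between the WT libraries, above WT replicate 1 and below WT replicates 2 and 3. The means were 2265 ± 296 CPM in KO and 3944 ± 2404 CPM in WT (SD, n = 3 each), and the difference did not pass (log2 fold change -0.80 ± 0.49 SE, 95% interval -1.93 to 0.33, adjusted p = 0.771). Without WT replicate 1, Car1 fell to 42.5% of the WT mean of 5331 CPM (log2 fold change -1.23 ± 0.12 SE, adjusted p = 0.0249 with edgeR quasi-likelihood, 3.19e-20 with DESeq2 and 1.02e-15 with the exact test of edgeR). Leaving out any other library gave edgeR log2 fold changes of -0.50 to -0.90, none past the threshold. The call of Car1 therefore rests on the omission of 1 library. Whether fewer cells with Car1 or less Car1 RNA per cell gave the KO level cannot be told apart in such bulk tissue.

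Car13 (chromosome 3, 14641727 to 14663002, plus strand), a cytosolic enzyme that neighbours Car1, split the libraries in a like way on a smaller scale. It was at 56.7, 61.2 and 57.5 CPM in KO and at 52.8, 82.7 and 71.3 CPM in WT, again with KO between WT replicate 1 and the other WT libraries. The log2 fold change was -0.24 ± 0.15 SE (95% interval -0.59 to 0.11, adjusted p = 0.787). Without WT replicate 1 it was -0.39 ± 0.09 SE, which edgeR quasi-likelihood did not call (adjusted p = 0.110) and DESeq2 did (adjusted p = 0.0220). Without WT replicate 2 it was -0.09 ± 0.14 SE (adjusted p = 0.984). Across the 6 libraries, which share these differences of WT replicate 1, log2 levels of Car13 and Car1 had a Pearson r of 0.91 and a Spearman rho of 0.77.

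Car2 (chromosome 3, 14886273 to 14900770, plus strand), a cytosolic form with a very high catalytic rate, lies in the same gene cluster but did not share this pattern. It was at 473.3, 683.7 and 450.9 CPM in KO and at 753.8, 552.6 and 540.9 CPM in WT, so KO replicate 2 and WT replicate 1 were the high libraries. The groups overlapped, and the log2 fold change was -0.20 ± 0.19 SE over the 6 libraries (95% interval -0.65 to 0.25, adjusted p = 0.89) and -0.02 ± 0.17 SE without WT replicate 1 (95% interval -0.43 to 0.38, adjusted p = 0.978). It was -0.41 without KO replicate 2 (95% interval -0.82 to -0.01, adjusted p = 0.588) and -0.08 without KO replicate 3. The ratio of Car1 to Car2 CPM was 4.48, 3.02 and 5.78 in the KO libraries and 1.55, 9.50 and 10.01 in the WT libraries. Hoxb13, a Hox gene of the distal colon, was high in the same libraries as Car2 over a wider range, at 147.5, 244.1 and 122.1 CPM in KO and at 313.0, 163.4 and 168.8 CPM in WT. Among 8368 genes with a mean of at least 10 CPM, Hoxb13 ranked second by likeness to Car2 over the 6 libraries (Pearson r 0.99, Spearman rho 0.94), and without KO replicate 2 and WT replicate 1, the libraries farthest from the median, r was 0.92. Fam40b and Ndrg2 were the other two of the closest 3, both at r of 0.99, and 118 genes had an r over 0.9 with Car2.

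**Figure D4:**
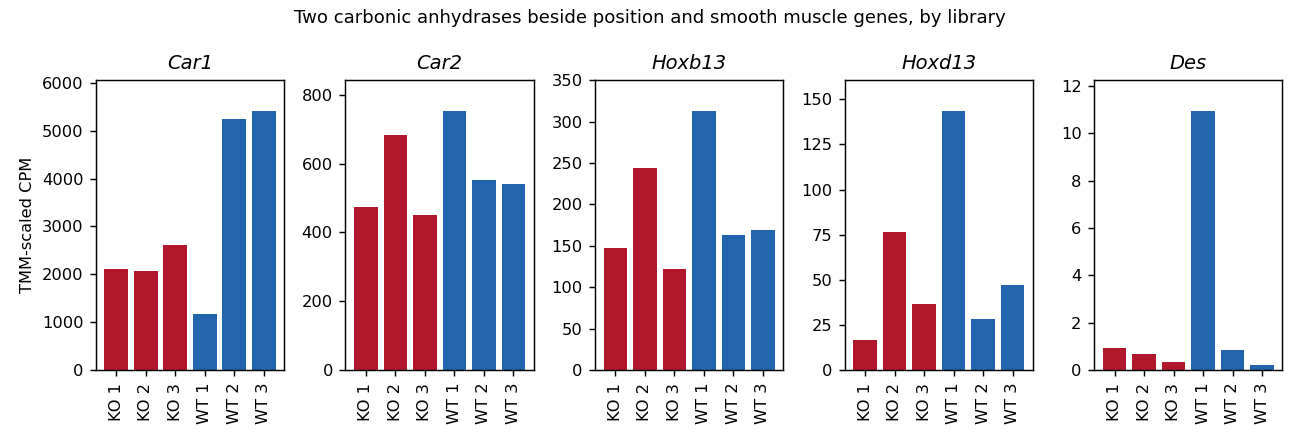
TMM-scaled CPM (y axes, from 0) of Car1, Car2, the Hox genes Hoxb13 and Hoxd13 and the muscle gene Des in each of the 3 KO (red) and 3 WT (blue) libraries. Car2, Hoxb13 and Hoxd13 are highest in WT replicate 1 and next highest in KO replicate 2, Des stands out in WT replicate 1, and Car1 is lowest there.

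Position genes were set beside Car1 as well. The 7 listed genes of colon position, 6 of them Hox genes, summed to 243.8, 434.8 and 246.9 CPM in KO and to 581.8, 269.2 and 293.3 CPM in WT. WT replicate 1 and KO replicate 2 were the high libraries. None of the 7 position genes passed in edgeR quasi-likelihood or DESeq2, and 0 had an unadjusted p under 0.05. Hoxa13 had a log2 fold change of 0.29 ± 0.13 SE, Hoxd13 one of -0.76 ± 0.67, Insl5, a hormone of colonic endocrine cells, -0.33 ± 0.29 and Hoxd12 -0.85 ± 0.78. The median of the 7 was -0.72 with all libraries and 0.19 without WT replicate 1. Their part in the levels of Car1 was not tested.

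Red blood cells, another source of Car1 and Car2 transcripts, were looked at through their own genes. The levels of 7 erythroid genes (4 globin genes, Alas2, Epb42 and Rhag) summed to 6.02, 3.99 and 20.2 CPM in KO and to 7.195, 5.32 and 4.86 CPM in WT. KO replicate 3 was the high library for globins. Their part in the levels of Car1 and Car2 was not tested. None passed in DESeq2, which gave no adjusted p for Epb42 and Rhag. Of the 4 globin genes, the only ones kept for edgeR quasi-likelihood, 0 passed there and 0 had an unadjusted p under 0.05.

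Of the enzymes that work outside the cell, Car4 overlapped between the groups and Car9 and Car12 were somewhat higher in KO without passing the test. Car4 (chromosome 11, 84957786 to 84966044, plus strand), the lipid-anchored form of the apical surface, was at 478.5, 602.3 and 454.2 CPM in KO and at 365.8, 401.2 and 580.4 CPM in WT. The groups overlapped, and the log2 fold change of 0.19 ± 0.19 SE (adjusted p = 0.896) had a 95% interval of -0.25 to 0.63. Without WT replicate 1 the log2 fold change was 0.06 and the interval -0.35 to 0.48. It was 0.05 without KO replicate 2 and 0.42 without WT replicate 3 (95% interval 0.07 to 0.76, adjusted p = 0.491). A fall of Car4 of the size seen in Car1 without WT replicate 1 lies outside these intervals.

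Car9 (chromosome 4, 43506966 to 43513729, plus strand), a transmembrane enzyme known as a target of the hypoxia-inducible factor, was at 106.8, 86.7 and 116.7 CPM in KO and at 72.7, 87.7 and 80.1 CPM in WT. KO replicates 1 and 3 exceeded all WT libraries, and KO replicate 2 lay just below WT replicate 2. The means were 103.4 ± 15.3 CPM in KO and 80.2 ± 7.53 CPM in WT (SD, n = 3 each), with a log2 fold change of 0.37 ± 0.12 SE (unadjusted p = 0.0193, adjusted p = 0.386, edgeR quasi-likelihood). It was 0.31 ± 0.13 SE without WT replicate 1 (adjusted p = 0.365). Without KO replicate 2, the KO library that overlapped WT, DESeq2 called Car9 (log2 fold change 0.49, adjusted p = 0.0338). DESeq2 called 229 of 16020 genes there, and edgeR quasi-likelihood did not call Car9 (adjusted p = 0.297). Exons of Car9 share 214 bases with the antisense gene Gm12454, which had 124 to 184 counts per library. No source used here says whether strand was used in counting, so reads of the pair may not be separable.

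Car12 (chromosome 9, 66713686 to 66766845, plus strand), the second transmembrane enzyme, was at 127.2, 128.5 and 129.7 CPM in KO and at 49.9, 123.1 and 112.7 CPM in WT. All 3 KO libraries were above all 3 WT libraries, and the KO libraries were nearly equal to each other. WT replicate 1 stood at 42.3% of the mean of the other two WT libraries. The log2 fold change was 0.43 ± 0.29 SE (adjusted p = 0.801) and 0.13 ± 0.08 SE without WT replicate 1 (95% interval -0.05 to 0.31, adjusted p = 0.546), so most of the difference in means came with that library. Without WT replicate 2 it was 0.66 ± 0.30 SE (adjusted p = 0.750). With Car5b, Car12 was 1 of 2 members without overlap between the groups, where 13.3% of all tested genes had none (6.77% higher in KO, as Car12, and 6.52% lower, as Car5b). Without WT replicate 1 there was no overlap for 4 of 8, where 30.3% of genes had none. Car1, Car5b and Car13 were then lower, as were 15.8% of genes, and Car12 was higher, as were 14.5%. Car5b entered the test through its WT counts, the higher group, so its place in both counts was partly built in.

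Since Car9 and Car12 lay on the same side, the sequence before their starts was searched for ACGTG (read as CACGT on the other strand). ACGTG is a form of the core of the hypoxia response element, and other forms were not searched. RefSeq windows of 250 bases before to 50 after the start (GRCm38.p6, the assembly of mm10) were available for 4 of the 8 genes, Car4, Car5b, Car9 and Car12. Car9 and Car4 held 1 match each to ACGTG, Car5b and Car12 none, and 19.6% of 32851 windows of this length held it. The matches are shown in capitals with their surroundings, followed by the 250 bases before Car12, where no match was found.
Car9, chr4:43506996-43507025, plus strand: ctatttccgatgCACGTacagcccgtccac
Car4, chr11:84957744-84957773, plus strand: ggagccgactccCACGTctagccgtccggg
Car12, chr9:66713436-66713685, plus strand: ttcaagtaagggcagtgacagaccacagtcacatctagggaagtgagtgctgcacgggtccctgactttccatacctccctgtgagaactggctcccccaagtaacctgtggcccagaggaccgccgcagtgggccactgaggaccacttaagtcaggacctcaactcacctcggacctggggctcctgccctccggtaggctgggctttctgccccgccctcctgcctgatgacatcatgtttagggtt
The match of Car9 begins 18 bases before its RefSeq start, though within the gene as GENCODE draws it. That of Car4 lies just after its RefSeq start, though before the gene as GENCODE draws it. A short Smad binding motif, CAGAC, or its reverse complement GTCTG, was found in all 4 windows and in 49.6% of all windows. Another Smad motif, GGCGCC, was found in the window of Car5b alone of the 4 and in 11.9% of all. Each match is a run of letters and not a measured binding site.

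A list of 12 other known targets of the hypoxia-inducible factor was set beside Car9. None passed in edgeR quasi-likelihood or DESeq2, and 1 had an unadjusted p under 0.05 in edgeR quasi-likelihood, where 8.54% of all genes had. The fold change was above 1 for 10 and below 1 for 2, and the median was 0.12 on the log2 scale beside -0.01 for all genes. DESeq2 called 1 of the 12 without WT replicate 1, where it called 3.48% of all genes. Ankrd37 had the smallest p, with a log2 fold change of 0.66 ± 0.20 SE and CPM of 8.37, 8.92 and 6.21 in KO against 5.87, 4.46 and 4.58 in WT. Vegfa, the endothelial growth factor, had -0.14 ± 0.07, the glucose carrier gene Slc2a1 0.14 ± 0.10 and Bnip3, which acts in the removal of mitochondria, 0.20 ± 0.18. A part of hypoxia in the level of Car9 was not tested.

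Car8 and Car5b complete the family. Car8 (chromosome 4, 8143362 to 8239041, minus strand), the member without enzyme activity, was at 48.5, 54.0 and 59.1 CPM in KO and at 28.001, 53.8 and 72.1 CPM in WT. The WT libraries lay on both sides of KO, and the sign of the difference depended on 1 of them: on the log2 scale KO over WT was 0.07 ± 0.29 SE using all libraries (adjusted p = 0.984) and -0.22 ± 0.14 SE without WT replicate 1 (adjusted p = 0.556). Car5b (chromosome X, 163976822 to 164027997, minus strand), the mitochondrial form, had 7, 7 and 6 counts in KO and 16, 9 and 14 counts in WT. All 3 KO libraries were below all 3 WT libraries, with 0.307 ± 0.0355 CPM in KO and 0.591 ± 0.128 CPM in WT (SD, n = 3 each). Its log2 fold change was -0.94 ± 0.33 SE, short of the threshold over all genes (unadjusted p = 0.0215, adjusted p = 0.409), and it was -0.76 ± 0.40 SE without WT replicate 1 (adjusted p = 0.490). Car5b entered the test through its WT counts, the higher group, so a difference was partly built into its inclusion, and counts this low limit the precision.

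A further 7 carbonic anhydrase genes of the table were at trace levels. Car3, a cytosolic form best known from muscle and fat, had 12, 12 and 22 counts in KO and 11, 16 and 18 in WT and was the only one kept for edgeR quasi-likelihood, with a log2 fold change of 0.02 ± 0.35 SE over all libraries (adjusted p = 0.997) and -0.15 ± 0.39 SE without WT replicate 1 (adjusted p = 0.923). Car7, Car11, Car14 and Car15 had at most 10 counts in any library. The mitochondrial form Car5a had 1 count in KO replicate 2 and in WT replicate 2 and 0 in the other 4 libraries, and the salivary form Car6 had at most 1. A count of 0 allows up to 3 counts, or 0.116 to 0.159 CPM in these libraries, for counting error only.

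Genes of the transport of bicarbonate and protons were described for the same libraries. Of 20 genes of acid, bicarbonate and chloride transport (exchangers, cotransporters, channels, a pump and a scaffold), 15 were tested and 0 passed in edgeR quasi-likelihood or DESeq2, while 2 had an unadjusted p under 0.05. The fold change was above 1 for 5 and below 1 for 10, and the median was -0.02 on the log2 scale. DESeq2 called 2 of these genes without WT replicate 1, where it called 3.48% of all genes. An unadjusted p under 0.05 was found for 8.54% of all genes in edgeR quasi-likelihood. Slc4a7, a sodium bicarbonate cotransporter, had the smallest p, at 244.7 to 266.8 CPM in KO and 134.9 to 204.6 CPM in WT (log2 fold change 0.49 ± 0.16 SE, adjusted p = 0.343). Slc4a4, another sodium bicarbonate cotransporter, followed at 117.3, 143.3 and 114.8 CPM in KO and 275.8, 160.6 and 157.9 CPM in WT (-0.66 ± 0.22, adjusted p = 0.370), and the chloride channel gene Ano1 had -0.72 ± 0.34. The sodium proton exchanger gene Slc9a3 was at 179.0, 251.7 and 182.2 CPM in KO and 55.7, 159.8 and 162.5 CPM in WT. WT replicate 1 was again the extreme library for Slc4a4 and Slc9a3, high in one and low in the other.

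Mature colonocyte genes, which mark the cells where Car1 and Car4 are abundant, lay on both sides of 0. Of 14 tested, 6 were above and 8 below 0 on the log2 scale, 0 passed in edgeR quasi-likelihood or DESeq2 or at an unadjusted p under 0.05, and the median was -0.01 with all libraries and -0.08 without WT replicate 1. Their summed level was 17900, 23769 and 19893 CPM in KO and 19646, 20673 and 22841 CPM in WT. Muc3, a membrane mucin, had the smallest p of the list (log2 fold change -0.17 ± 0.16 SE), followed by Mxd1 (-0.25 ± 0.25), Cdhr2 (0.14 ± 0.14) and Tmigd1 (0.34 ± 0.37). Of 12 genes of the crypt base and the cell cycle, 9 were below 0 on the log2 scale with all libraries. Their median was -0.27 with all libraries and -0.02 without WT replicate 1. With edgeR quasi-likelihood 0 passed and 3 had an unadjusted p under 0.05, where 8.54% of all genes had. DESeq2 called 1 of the 12 with all libraries and 2 without WT replicate 1, where it called 2.18% and 3.48% of all genes. The 1 called with all libraries was Axin2, a target of Wnt signalling, at 21.3, 29.4 and 17.2 CPM in KO and 39.6, 37.9 and 42.8 CPM in WT (adjusted p = 0.00244 with DESeq2 and 0.142 with edgeR quasi-likelihood). All 8 B cell genes were called higher by DESeq2, with and without WT replicate 1, and 0 by edgeR quasi-likelihood, at 150.8, 158.6 and 72.0 CPM summed in KO and 38.6, 27.2 and 24.6 CPM in WT, and their part in the carbonic anhydrase levels was not tested. Fibroblast genes also lay higher in KO, with all 5 tested above 0 on the log2 scale (median 1.33), though edgeR quasi-likelihood called 0 with all libraries. An unadjusted p under 0.05 was found for 4 of the 5 and for 8.54% of all genes. Of these, Dcn, a matrix proteoglycan, was at 4.73, 4.98 and 6.21 CPM in KO and 1.74, 1.13 and 1.35 CPM in WT. DESeq2 called it (adjusted p = 1.00e-07), and edgeR quasi-likelihood called it only without WT replicate 1 (adjusted p = 0.0335, against 0.0958 with all libraries). The part of fibroblast genes in the carbonic anhydrase levels was not tested. The 8 goblet cell genes were all below 0 on the log2 scale (median -0.21), with 0 passed in edgeR quasi-likelihood or DESeq2, 1 at an unadjusted p under 0.05 and 1 called by DESeq2 without WT replicate 1. Genes of smooth muscle summed to 14.2 to 15.4 CPM in KO and 14.7 to 57.1 CPM in WT, with WT replicate 1 the high library, and Tagln, an actin-binding protein gene, had the smallest p of that list (log2 fold change -0.46 ± 0.21 SE, adjusted p = 0.632). Genes of endothelium, enteric neurons and glia, and skeletal muscle and fat stayed below 10 CPM in sum in every library.

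Likeness of log2 CPM over the 6 libraries was also searched for the other members with a mean of at least 10 CPM, which leaves out Car5b. Car1 was closest to Ndufc2, Rbm7 and Gars (Pearson r 0.99 to 1.00), yet Ndufc2 ranged from 113.0 to 139.1 CPM where Car1 ranged from 1169 to 5414, and 302 genes had an r over 0.9 with Car1. Car13 was closest to Pak2, Hsdl2 and BC006779, Car4 to Mif4gd, Pef1 and Dact2, Car8 to Shfm1, Smagp and Tmem54, and Car12 to Arl1, Acnat1 and Tbc1d9. Car9 was closest to Fam117b, Slc39a11 and Ttyh3, with 74 genes over an r of 0.9. Without the 2 libraries farthest from the median of Car12, WT replicates 1 and 3, its r was 0.92 for Arl1, -0.48 for Acnat1 and 0.49 for Tbc1d9, so the likeness to Acnat1 and Tbc1d9 rested on those libraries.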

How the data were processed

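The deposited table gives, per the file headers, 6 columns of whole-number read counts per gene and the authors' fitted comparison: a mean normalised signal, a log2 fold change, its standard error and statistic (score columns) and p-values. These fitted values are the authors' deposited ones and were not used for any result. Per the series' design text, single-end reads were mapped to mm10 with TopHat, counted with HTSeq and tested with edgeR, whereas Bowtie 0.12.2 and 2 builds, mm8 and mm10, appear in the submitters' processing notes. Counts were scaled by TMM, filtered with filterByExpr (14180 genes kept) and fitted with group as the sole term in edgeR 4.0.16 under R 4.3.3 (quasi-likelihood F test, Benjamini-Hochberg over all genes). CPM uses library totals times TMM factors, without the filter. Standard errors are the log2 fold change over the square root of F. DESeq2 1.42.0 and limma 3.58.1 served as alternatives, and the fitting was tested on simulated data. Positions and exonic lengths come from GENCODE M21 (mm10), which held 98.1% of the gene IDs. Genes named from each companion list are among the 4 with the smallest p, except the erythroid genes named to define their sum, and likeness names the 3 highest Pearson r. The members, the lists and the omission of WT replicate 1 were chosen with earlier results of these data known. The labels speak of 3 mice per group. With 3 against 3 libraries no permutation test can give a two-sided p below 0.1.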

Additional observations from a re-analysis of the deposited data

How the results depend on the processing

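The number of carbonic anhydrases called was 0 with all libraries under every scaling, filter and tool tried. Leaving out 1 library gave 0 to 1 with edgeR quasi-likelihood and 0 to 2 with DESeq2, and 2 with the exact test of edgeR without WT replicate 1. Car1 was called without WT replicate 1 by all 3 tools run there, and Car13 by DESeq2 and the exact test. Of all genes, edgeR quasi-likelihood then called 0.118%, DESeq2 3.48% and the exact test 4.21%. Car9 was called by DESeq2 without KO replicate 2 alone, where DESeq2 called 229 of 16020 genes. Car8 turned to -0.22 without WT replicate 1 in edgeR quasi-likelihood, DESeq2 and the exact test, and to -0.00107 in DESeq2 without KO replicate 3; with 1 library left out in edgeR quasi-likelihood it spanned -0.22 to 0.40. The other members kept their sign in every alternative. Over all genes, 0 were called in the reported fit, 157 with no filter on low counts, 336 with DESeq2, 381 with the exact test and 608 with that test without WT replicate 1. Leaving out 1 library gave 0 to 266 calls with edgeR quasi-likelihood (266 without KO replicate 3, 17 without WT replicate 1) and 142 to 483 with DESeq2 (142, 229 and 374 without KO replicates 1, 2 and 3, and 483, 233 and 221 without WT replicates 1, 2 and 3). The cause was not tested.

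Same-numbered KO and WT libraries did not deviate together (correlations of -0.05, -0.14 and 0.14), so the numbers were not taken as pairs. Deviations from means of 3 libraries are not independent, so these correlations cannot exclude pairing. The library codes alternate between WT and KO. With the replicate number as a block, 0 genes and 0 carbonic anhydrases were called, and Car1 had a log2 fold change of -0.54. Library depth limits Car5b and the trace members most, since their counts are at most 22.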
